A study of Mus musculus with 4 samples.

Results

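NR4A3 was silenced in resting mouse dendritic cells, and the transcriptome was compared with that of cells given a control siRNA. The comparison used 2 of the 4 arrays of the study, those labelled si-NR4A3, LPS(-) and si-Ctrl, LPS(-). All genes with 1 symbol per probe set were taken, 19938 of them, out of 28856 probe sets on each array, and a gene with several probe sets was represented by its brightest. The cells were grown from whole mouse bone marrow for 10 days with 10% serum and 20 ng/mL GM-CSF, which turns marrow precursors into dendritic cells, and received siRNA by electroporation on day 10. They were harvested with no stimulus added. Control and silenced cells alike were cultured with GM-CSF and electroporated, and they differed in the siRNA. The other 2 arrays, with the same siRNAs and with 100 ng/mL LPS added 24 hours after the siRNA and left for 24 hours, are given beside them. The strain is BALB/c in the culture protocol and C57BL/6 in the sample descriptions, so it is not settled here. No sequence of either siRNA, and no age of the mice, was at hand. The siRNA was given to whole cultures, so it could enter any cell in them, dendritic or not.

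Each condition was measured on 1 array, so every value below is the difference between 2 arrays, with no replicate check, no error and no p-value. Nothing in the labels tells whether separate cultures were used. Values are log2 levels, so a difference of 1 is 2-fold, and a difference is always NR4A3 siRNA minus control siRNA. Genes were counted only if at least 1 array of the pair reached 6.66, the median level of all genes with a symbol on the 4 arrays, which 10257 genes did. Since a gene can pass this filter through the brighter array alone, levels under 6.66 on the dimmer array lie where probe signal is weak, and the folds of such genes are approximate. The arrays' median levels lay between 6.37 and 6.42, and Pearson's r between the 2 unstimulated arrays was 0.993 over probe sets. Markers of dendritic cells were present on both arrays: of 10 measured, 8 were above 6.66 under either siRNA. Flt3 and Bcl11a were below it. Itgax stood at 12.85 with control siRNA and 12.89 with NR4A3 siRNA, and Cd74 at 13.45 and 13.47. Dpp4 differed more, at 8.45 and 7.48, and Kmo stood at 7.91 and 8.34. Of the 10 differences 5 were below 0, and their median was -0.01.

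NR4A3 is an orphan nuclear receptor, a transcription factor with no known natural ligand, and belongs with NR4A1 and NR4A2 to a family of immediate early genes that bind DNA as monomers at an extended half-site. Dendritic cells take up antigen in tissues in an immature state, then mature: they lower uptake receptors, raise co-stimulatory molecules and the chemokine receptor CCR7, reorganise actin into dendrites, and migrate to lymph nodes to prime T cells. In GM-CSF cultures a share of cells matures without any added microbial signal, and NR4A3 is known as a regulator of dendritic cell migration. In bulk RNA, fewer cells of a type and less RNA per cell cannot be told apart, and this holds for every difference below.

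Nr4a3, the targeted gene, stood at 11.21 in unstimulated control cells and at 7.15 in unstimulated silenced cells, and at 11.77 and 9.39 with LPS. Below, pairs of levels are given in this order, control siRNA first. The unstimulated silenced array was the lowest of the 4, and it stayed above 6.66. The related receptor Nr4a1 stood at 6.74 and 6.85, close to the filter on both unstimulated arrays, and Nr4a2 at 7.79 and 7.48. With LPS Nr4a2 stood at 9.79 and 8.60, 2.28-fold lower in silenced cells, and Nr4a1 at 6.75 and 6.83. In unstimulated cells the siRNA label was thus matched by a 16.6-fold lower Nr4a3 level, beside differences of 1.08-fold and 1.24-fold in Nr4a1 and Nr4a2.

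Large differences ran mainly towards lower levels. At least 2-fold lower were 176 genes, 1.72% of the genes tested, and at least 2-fold higher were 21 genes, 0.205%. At 3-fold the counts were 63 (0.614%) and 5 (0.0487%). At 4-fold 0 genes were higher, and 35 were at least 4-fold lower, of which 7 were at least 8-fold lower. The largest fold was 21.7 in the lower direction and 3.93 in the higher. Over all genes tested the median difference was 0.02 and the median size of a difference was 0.15, so most genes stood at nearly the same level. The 95th percentile of the size was 0.65 over the genes tested. When all 19938 genes, dim ones included, were put in 5 equal groups by level, it was 0.23 in the dimmest group, highest in the fourth at 0.71, and 0.61 in the brightest. At the 2-fold boundary, Irf8 and Twf1 lay just inside and Jag1 (-0.99) and Cdkn3 (-0.99) just outside, so the count marks no gap in the values.

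**Figure D1:**
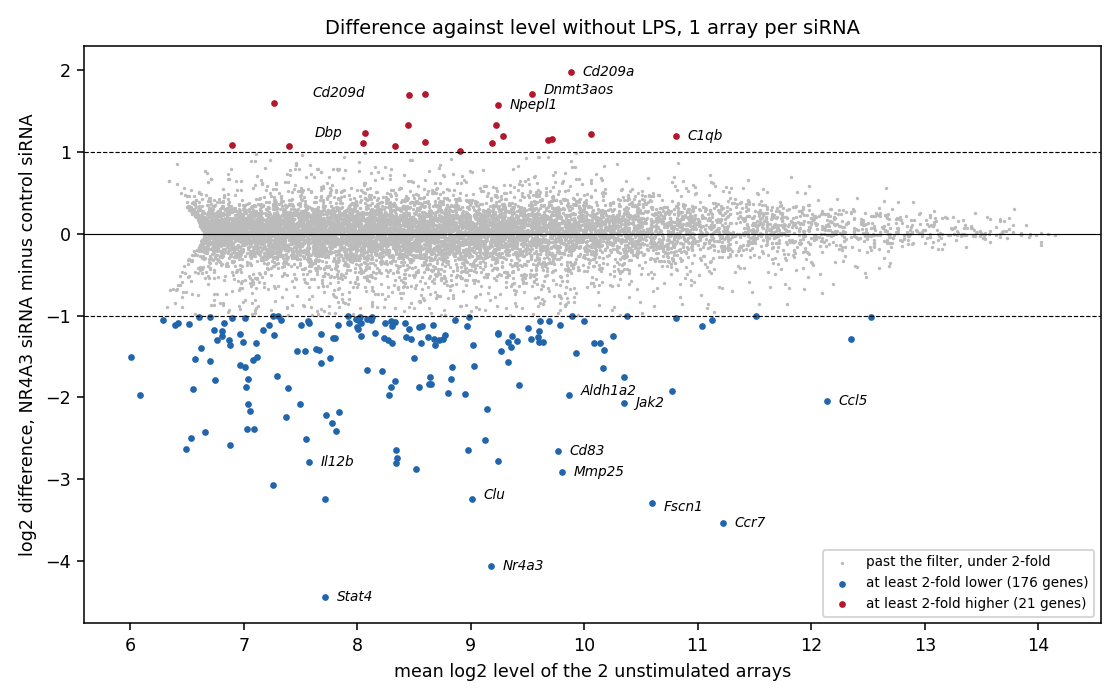
Each point is 1 of the 10257 genes past the filter: the x axis is its mean log2 level on the 2 unstimulated arrays and the y axis the log2 difference, NR4A3 siRNA minus control siRNA, with dashed lines at 2-fold. The 176 lower genes (blue) reach down to -4.44 for Stat4, and the 21 higher genes (red) reach up to 1.97 for Cd209a.

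Where a gene had more than 1 probe set past the filter, these gave a measure of agreement within the arrays, although they share the same RNA and are not replicates. For 584 such genes the median range of the difference between probe sets was 0.08 and the 95th percentile was 0.41. Of the genes past 2-fold, 9 had more than 1 probe set above the filter, and in all 9 the probe sets lay on the same side. Among them, Snord118 had the same value, 1.70, in both probe sets, so its agreement was fixed. Each gene was counted through its brightest probe set, so the shared direction is no independent check. Dennd4a, a regulator of Rab GTPases, had 9 probe sets with differences from -1.36 to -0.98. Among the 9 the exception in size was Crybg1, with -1.12 and -0.03 in its 2 probe sets. Rgs3 and Top2a each had a further probe set, below the filter, with a difference of -0.03.

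The lowest genes included many that are known for mature dendritic cells. Stat4, which transmits interleukin-12 signals, stood at 9.94 with control siRNA and 5.50 with NR4A3 siRNA, and at 11.81 and 8.99 with LPS. Ccr7, the receptor for lymph node chemokines, stood at 12.99 and 9.46, and with LPS at 13.38 and 12.64. Fscn1, the actin-bundling protein of dendrites, stood at 12.24 and 8.95, and with LPS at 13.34 and 12.68. For Ccr7 and Fscn1 the unstimulated silenced array stood apart below the other 3. In Stat4 each silenced array lay under both control arrays. Cd83, a maturation marker that steadies surface MHC class II and CD86, stood at 11.09 and 8.44, and with LPS at 12.36 and 10.63. Il12b, the p40 chain shared by interleukin-12 and interleukin-23, stood at 8.97 and 6.18 without LPS, against 13.47 and 12.16 with it.

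Lists of genes of known programmes describe where these belonged, and 34 of them held 1022 measured genes. The lists overlap and were chosen with earlier results of these data known, so their counts are not independent of one another. Stat4 and Il12b belong to the mature dendritic cell list and to the interleukin-12 list. Relb belongs to the mature dendritic cell, NF-kB and transcription factor lists. Ribosomal protein genes and housekeeping genes, kept for reference, had medians of -0.03 and 0.02. Of the 34 lists, 7 had a median below -0.15, 25 lay within 0.15 of 0 and 2 were above 0.15.

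The list of the mature dendritic cell programme held 46 measured genes, with a median of -0.88 against 0.02 for all genes tested. Of them 19, or 41.3%, were at least 2-fold lower, against 1.72% of all genes tested, and 0 were higher. At 1.5-fold, which 4.69% of all genes tested were below, 26 were lower and 0 higher. Many of these genes had been seen to differ in earlier results from the same arrays, so the list is no independent evidence of its direction. Beside Ccr7, Fscn1, Stat4 and Cd83, the lower members were of several kinds. Clu, a secreted chaperone, stood at 10.64 and 7.39, and Nudt17, a Nudix hydrolase, at 9.74 and 6.93. Serpinb6b and Serpinb9, intracellular protease inhibitors of which the second blocks granzyme B, stood at 10.30 and 7.65 and at 9.48 and 7.60. Gadd45b, a stress-induced regulator of MAP kinase signalling, stood at 10.35 and 8.50. Samsn1, an adaptor that restrains lymphocyte activation, stood at 10.98 and 9.34. The co-stimulatory genes did not differ alike: Cd40 stood at 8.39 and 7.27 and Cd86 at 9.53 and 8.62, while Cd80 stood at 10.29 and 9.89. Other bright members stood at the same level on both arrays, among them Ccl17 (13.13 and 13.14), Cst3 (13.93 and 13.93) and Cd63 (12.47 and 12.49). Ccl22, a chemokine that is usually named together with Ccl17, stood at 13.04 and 12.02.

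**Figure D2:**
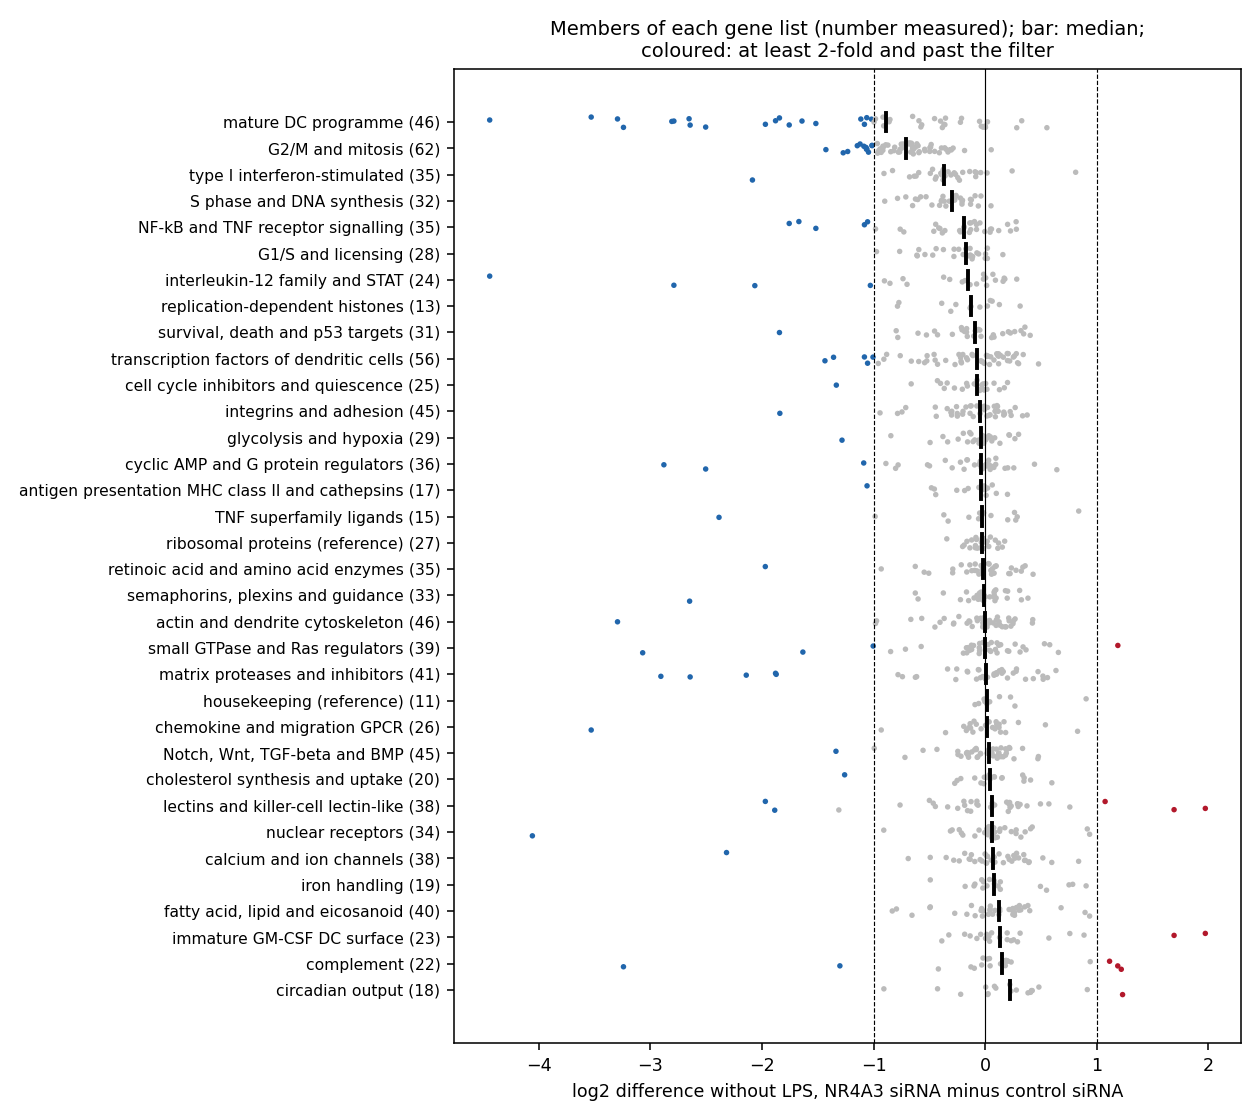
Each row is a gene list with its number of measured genes, each point a gene and the black bar the list's median; the x axis is the log2 difference without LPS, with dashed lines at 2-fold, and blue and red mark genes past the filter and 2-fold. The medians of the mature dendritic cell list (-0.88) and the mitosis list (-0.71) lie farthest to the left, and 25 of the 34 medians lie within 0.15 of 0.

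Migration genes did not differ as a block. Of 26 chemokine and migration receptors measured, Ccr7 alone was at least 2-fold lower, against 1.72% of all genes tested, and the list's median was 0.02. Cxcr4, the receptor for the marrow chemokine CXCL12, stood at 10.25 and 9.32, and Ccrl2, a chemerin-binding receptor, stood at 9.76 and 10.59. Ccr2, which guides monocytes, stood at 11.72 and 11.73. Of 46 cytoskeleton genes Fscn1 alone passed 2-fold, against the same 1.72%. The membrane-cytoskeleton linkers Marcks and Marcksl1 came close to 2-fold, 1.96-fold and 1.98-fold lower. Actb stood at 14.09 and 14.08. Adhesion genes had a median of -0.05, with Cldn1, a tight junction protein, at 9.57 and 7.73, and the collagen receptor subunit Itga1 at 10.24 and 9.45.

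Genes of interleukin-12 and interleukin-23 signalling were lower at several steps. Of 24 measured genes 4 were at least 2-fold lower, against 1.72% of all genes tested, and 0 higher, and the median was -0.16. These were Stat4, Il12b, Jak2 and Il23r: a ligand subunit, a receptor chain, the kinase attached to it and the transcription factor it activates. Jak2 stood at 11.38 and 9.31, with 11.99 and 11.62 under LPS, so its unstimulated silenced level was the lowest of the 4 arrays. Il23r stood at 7.53 and 6.50. Il12rb2, a receptor chain that passes the interleukin-12 signal on, stood at 9.45 and 8.71, and Stat3 at 11.53 and 10.63. Stat6, which serves interleukin-4, stood at 11.19 and 11.19.

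Receptors for neighbouring cytokines were among the lower genes as well. Il18r1 and Il18rap, the chains of the interleukin-18 receptor, stood at 8.08 and 6.00 and at 7.66 and 6.33, below the filter with NR4A3 siRNA and, for both chains, on both LPS arrays. Il2ra, the high-affinity chain of the interleukin-2 receptor, stood at 9.55 and 7.71. The last 3 genes were in no list and were picked after their values were seen.

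Of the genes of NF-kB and TNF receptor signalling, 5 of 35 measured were at least 2-fold lower, against 1.72% of all genes tested, and 0 higher, with a median of -0.19. Of the noncanonical arm, Map3k14, the NF-kB-inducing kinase, stood at 8.92 and 7.25. Relb, a nuclear subunit of that arm, stood at 8.87 and 7.79, and Nfkb2, the gene of its partner subunit, at 10.22 and 9.86. Rel, the c-Rel subunit, stood at 11.65 and 10.60. Tnfrsf9, a co-stimulatory receptor, stood at 11.23 and 9.47, and Traf1, an adaptor bound by it, at 9.26 and 7.74. The canonical subunit Rela stood at 10.74 and 10.61. Of 15 TNF superfamily ligands 1 was at least 2-fold lower, against the same 1.72%: Tnfsf4, the OX40 ligand that co-stimulates T cells, stood at 8.28 and 5.90.

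Among 56 transcription factors known from dendritic cells the median was -0.07, 5 were at least 2-fold lower, against 1.72% of all genes tested, and 0 were higher. Beside Rel and Relb these were Zeb1 (8.26 and 6.82), Spib (7.56 and 6.20) and Irf8, at 12.01 and 11.01. Irf8 and Spib are known for conventional type 1 and plasmacytoid dendritic cells, and of 7 measured markers of the latter 4 were above the filter on either array, with a median difference of -0.04. Irf4, known for type 2 dendritic cells and for migration, stood at 10.01 and 9.35, and Spi1, the PU.1 factor of all myeloid cells, at 12.37 and 12.53.

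Genes of mitosis formed the other large group. Of 62 measured genes of the G2 and M phases, 61 were lower with NR4A3 siRNA, as were 42.8% of all genes. The difference was at least 1.5-fold for 38 and at least 2-fold for 12, against 4.69% and 1.72% of all genes tested, and 0 were higher by 1.5-fold. The median was -0.71. The 12 genes spanned the steps of division: Ccna2 (10.14 and 9.08) and Ccnb2 (10.22 and 9.16) are cyclins, Plk1 (9.39 and 8.16) and Bub1 (8.06 and 6.94) kinases of spindle assembly and its checkpoint, and Kif11 (8.44 and 7.16) the motor that separates spindle poles. Prc1, which bundles microtubules of the central spindle, had the largest difference, from 8.38 to 6.95. Hmmr, Kif20a, Kif23, Nuf2, Nusap1 and Top2a completed the 12. The exception to the direction was Incenp, at 7.91 and 7.97.

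The list medians were smaller in size for earlier stages of the cycle. The shares lower by 1.5-fold were not graded between S phase (15.6%) and G1/S (17.9%). For 32 genes of S phase the median was -0.30, with 5 lower by 1.5-fold, against 4.69% of all genes tested, and 0 by 2-fold, and the largest was Tyms, thymidylate synthase, at 8.05 and 7.15. For 28 genes of the G1/S transition and origin licensing it was -0.17, with 5 lower by 1.5-fold, against the same 4.69%, among them the helicase subunits Mcm6 (8.17 and 7.41) and Mcm2 (8.31 and 7.70). Cdk4, which acts in G1, stood at 12.19 and 12.19. Of 25 cycle inhibitors and quiescence genes 1 was past 2-fold, and it was lower, against 1.72% of all genes tested. This was Cdkn2c, an inhibitor of CDK4 and CDK6, at 8.97 and 7.64. With LPS the mitosis genes were low under both siRNAs. Their mean level was 7.79 and 7.06 without LPS and 6.44 and 6.35 with it, and 20 of the 62 passed the filter there, against 49 without LPS.

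**Figure D3:**
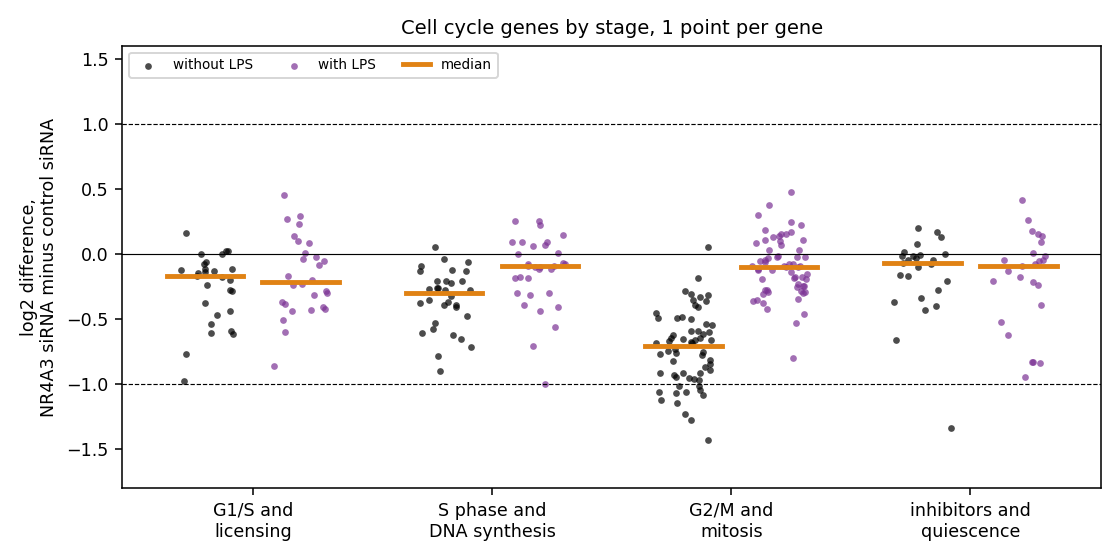
Each point is a gene of 1 of 4 cell cycle lists; the y axis is the log2 difference, NR4A3 siRNA minus control siRNA, for the arrays without LPS (black) and with LPS (purple), the orange bars are medians and the dashed lines mark 2-fold. The mitosis list has a median of -0.71 without LPS and -0.10 with LPS, and the medians of the other lists lie between -0.30 and -0.07.

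Promoter sequences of the mitosis genes show motifs that many of them share on the DNA. Late cell cycle genes are known to be held silent in resting cells by the DREAM complex at the cell cycle genes homology region, CHR, with nearby CCAAT boxes that bind NF-Y. The windows are from RefSeq, build GRCm38.p6, 250 bases before to 50 after each start, and were searched on both strands. Of 51 mitosis genes with a window, 35 (68.6%) held the CHR letters TTTGAA, against 20.2% of all 27025 genes in the table, 7.14% of the S phase list and 31.8% of the G1/S list. CCAAT was held by 68.6% of the mitosis list and 41.1% of all genes. The G1/S list had nearly the same CCAAT share, 68.2%, and the S phase list 53.6%. Shown are the 110 bases before the start of 3 of the 12 mitosis genes past 2-fold, 5′ to 3′ on the gene's strand. Matches to CHR and CCAAT on either strand are in capitals. The 3 were chosen because these bases hold both motifs, so they do not stand for the 12. Prc1 lies at chr7:80294366-80294475 on the plus strand and is the second of 2 starts in the table, Kif11 at chr19:37376272-37376381 on the plus strand, and Top2a at chr11:99024190-99024299 on the minus strand.
Prc1: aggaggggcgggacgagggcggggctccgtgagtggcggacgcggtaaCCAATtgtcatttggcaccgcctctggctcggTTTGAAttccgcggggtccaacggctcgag
Kif11: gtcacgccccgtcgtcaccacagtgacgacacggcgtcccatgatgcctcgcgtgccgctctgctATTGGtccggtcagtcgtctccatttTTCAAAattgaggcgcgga
Top2a: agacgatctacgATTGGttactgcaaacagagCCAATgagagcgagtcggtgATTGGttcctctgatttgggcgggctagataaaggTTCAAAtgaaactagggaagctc
In each of these 3 the CHR lies nearer the start than the CCAAT box, at 30, 19 and 23 bases before it. Of all genes at least 2-fold lower with a window, 16.6% held CHR, against 13.9% of the genes past the filter. CCAAT was held by 41.4% and 42.3% of the same genes. A match is a description of the letters in the window and shows no binding.

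The NBRE, the octamer AAAGGTCA that NR4A receptors bind as monomers, was searched in the same way. It was held by 0 of the 145 genes at least 2-fold lower that have a window, by 0 of the 16 at least 2-fold higher and by 1.7% of all genes in the table. The letters are therefore rare in windows of this length, and their absence there says nothing of sites elsewhere. An NF-kB motif was held by 26 of the same 145 lower genes (17.9%), by 3 of the 16 higher genes (18.8%), by 12.4% of genes past the filter and by 9.55% of all genes. Stat4 and Fscn1 are shown as the lowest and the fourth lowest gene, each with a match to a searched motif shortly before the start: Stat4 with a match to the core of the interferon-stimulated response element, which is GAAA repeated after any 2 bases, and Fscn1 with the cyclic AMP response element TGACGTCA, both in capitals. The motif marked in each gene was picked for display, and the windows of Stat4 also held CHR and CCAAT matches. Stat4 is at chr1:52008130-52008239, plus strand, the second of 2 starts, and Fscn1 at chr5:142960245-142960354, plus strand.
Stat4: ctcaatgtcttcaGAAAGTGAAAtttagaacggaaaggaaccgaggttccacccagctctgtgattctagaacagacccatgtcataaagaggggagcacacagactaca
Fscn1: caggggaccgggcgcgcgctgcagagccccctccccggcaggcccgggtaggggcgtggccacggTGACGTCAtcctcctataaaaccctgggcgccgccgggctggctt
Among all genes at least 2-fold lower the interferon core was held by 4.14% and the cyclic AMP element by 2.76%, close to 3.8% and 3.59% of the genes past the filter. The E-box CACGTG was held by 4.83% of the same lower genes and 12.1% of the genes past the filter, and the AP-1 motif TGANTCA by 6.21% and 6.26%. None of the motifs searched contains another.

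Interferon-stimulated genes were slightly lower as a group. Of 35 measured, 32 were below 0, against 42.8% of all genes, with a median of -0.37. Past 1.5-fold were 7 lower and 1 higher, against 4.69% and 1.62% of all genes tested. Past 2-fold was Mx1 alone, an antiviral GTPase, at 8.54 and 6.45, a share near the 1.72% of all genes tested. Ifit1, which binds viral RNA, stood at 7.56 and 6.65, and Irf7, the factor that amplifies interferon production, at 11.26 and 10.67. Ifi27 ran the other way, at 9.49 and 10.30. The bright members Ly6e, Lgals3bp and Usp18 (11.23 and 11.14) differed by under 1.2-fold. Of 24 members with a promoter window, 11 (45.8%) held the interferon core, against 3.99% of all genes. Ifit1 was chosen as a member at least 1.5-fold lower whose 110 bases before the start hold the core, so it does not stand for the list. It lies at chr19:34640779-34640888, plus strand, and its 2 matches are on the reverse strand.
Ifit1: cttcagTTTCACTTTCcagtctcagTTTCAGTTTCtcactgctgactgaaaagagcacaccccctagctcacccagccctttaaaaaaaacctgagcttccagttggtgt
Its matches begin 104 and 85 bases before the start.

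Signalling through cyclic AMP and G proteins had single large differences within a list whose median was -0.04. Ramp3, which joins the receptor Calcrl to make a receptor for adrenomedullin, stood at 9.95 and 7.07. Calcrl itself stood at 9.35 and 8.46, and Ramp1, which turns the same receptor towards the peptide CGRP, at 8.15 and 8.80. Adcy6, an adenylyl cyclase that makes cyclic AMP, stood at 8.80 and 6.30. The phosphodiesterases that break it down were lower too but by under 2-fold, Pde4b at 8.65 and 7.84 and Pde4d at 9.08 and 8.30. Adgrg6, an adhesion receptor coupled to cyclic AMP and in no list, stood at 10.39 and 7.86. P2ry10, a lysophosphatidylserine receptor from the list of calcium and ion channel genes, stood at 8.93 and 6.62.

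Small GTPase genes gave 3 lower and 1 higher of 39 at 2-fold, against 1.72% and 0.205% of all genes tested, with a median of 0.00. Rerg, a Ras-related growth inhibitor, stood at 8.79 and 5.72. Arap2, which inactivates Arf6, stood at 7.83 and 6.20, and with LPS at 8.93 and 6.47, so both silenced arrays were below the filter. Rgl1, an exchange factor for Ral, stood at 8.69 and 9.88, and its relative Ralgds at 8.27 and 8.93.

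Proteases and their inhibitors included 5 of the genes at least 2-fold lower among 41 measured, against 1.72% of all genes tested, while the list's median was 0.01. Mmp25, a membrane-anchored matrix metalloproteinase, stood at 11.26 and 8.35. Adam23, a disintegrin without protease activity, stood at 10.21 and 8.07, and Adam19, an active member of that family, at 9.24 and 7.36. The other 2 were Serpinb6b and Serpinb9. Ctsk, the cathepsin of osteoclasts, stood at 10.45 and 11.09. The 17 measured genes of MHC class II presentation centred on -0.03. H2-Oa, a subunit of the peptide-editing inhibitor H2-O, at 8.65 and 7.59, was the 1 member past 2-fold, against the same 1.72%.

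The remaining lowest genes were of mixed kinds. Slamf7, a self-binding receptor of the SLAM family, stood at 10.63 and 7.85. Sema7a, a membrane-anchored semaphorin that binds integrins, stood at 9.66 and 7.02. Strip2, a component of a phosphatase scaffold, stood at 9.33 and 6.10, and Slc22a23, an orphan transporter, at 9.72 and 6.98. Genes of secreted or matrix-modifying proteins were Ndnf (7.81 and 5.18), Htra1, a serine protease (8.93 and 6.76), P3h2, a collagen prolyl hydroxylase (8.22 and 5.84), and Aoc1, a diamine oxidase (8.17 and 5.59). Calb2, the calcium buffer calretinin, stood at 7.79 and 5.28, and Stxbp6, a regulator of SNARE complexes, at 8.49 and 6.26. Ceacam15 (7.87 and 5.45), Mall (9.02 and 6.61), Tcaf2 (8.83 and 6.62) and Tox3 (8.14 and 5.97) completed the 30 lowest. Of all 176 lower genes, 53 lay below the filter with NR4A3 siRNA.

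Of the 176, 61 were members of the lists, which held 1022 of the 19938 genes and were chosen with earlier results known. The genes outside them that follow were picked after their values were seen. Cblb, a ubiquitin ligase that restrains antigen receptor signals, stood at 10.65 and 9.20, and Dgka, which removes diacylglycerol, at 10.88 and 9.46. Pik3cg, the phosphoinositide kinase coupled to chemoattractant receptors, stood at 9.85 and 8.63. Cytip, a scaffold that controls integrin adhesion of dendritic cells, stood at 11.73 and 9.81. Ccl5, a chemokine for T cells, was among the brightest genes of the count, at 13.16 and 11.12. Cx3cl1, a membrane-bound chemokine, stood at 9.24 and 7.44, and Il33, an alarmin, at 8.66 and 7.41.

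**Figure D4:**
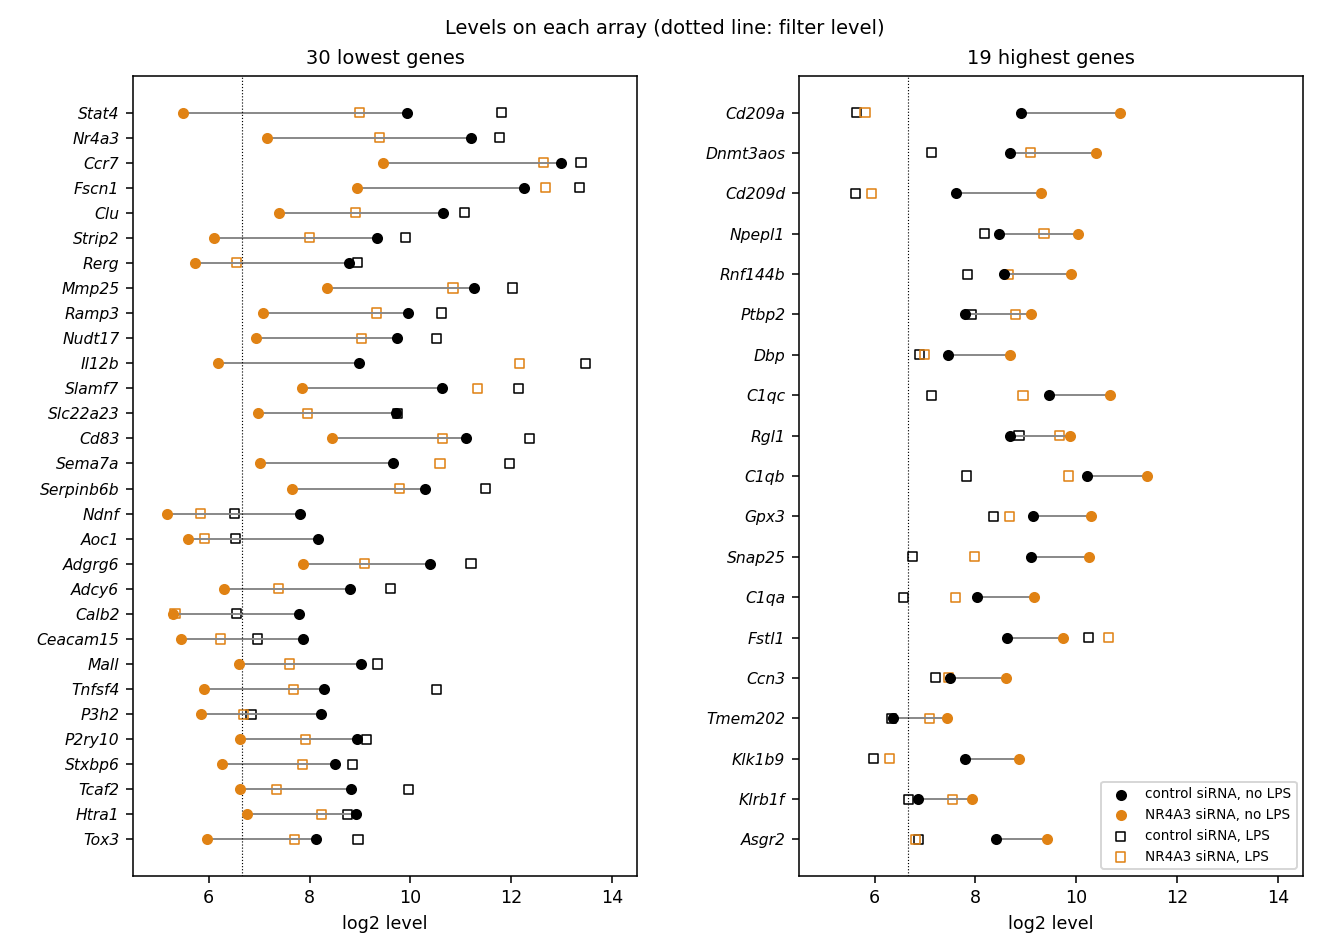
Log2 levels of the 30 lowest and the 19 highest genes on all 4 arrays: filled circles are the unstimulated arrays, open squares the LPS arrays, black is control siRNA and orange NR4A3 siRNA, and the dotted line is the filter at 6.66. In the left panel the unstimulated silenced array is the lowest of the 4 for each gene, and in the right panel Cd209a and Cd209d lie below 6 on both LPS arrays.

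Genes that stood higher were fewer and their differences smaller. Receptors of immature cells were among them. Cd209a, the mouse relative of the uptake lectin DC-SIGN, stood at 8.90 and 10.87, and Cd209d at 7.61 and 9.30. With LPS both were below the filter under either siRNA, Cd209a at 5.63 and 5.81, so the difference could be seen only without LPS. Probes of such near-identical copies can share signal. Of 23 genes of the immature cell surface 4 were at least 1.5-fold higher, against 1.62% of all genes tested, and 0 were lower, with a median of 0.13. Mgl2 and Clec10a, galactose-binding lectins, stood at 9.44 and 10.33 and at 7.30 and 8.06, and the mannose receptor Mrc1 at 10.69 and 11.26. Asgr2, a subunit of the asialoglycoprotein receptor, stood at 8.40 and 9.41.

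Killer-cell lectin-like receptors ran both ways. Klrd1 (7.07 and 5.10) and Klrk1 (8.33 and 6.45), which form receptors for MHC class I-like ligands, were lower, and Klrb1f (6.86 and 7.93) was higher. T and NK cell markers were near background: of 11 measured, Cd2 alone was above the filter.

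The 3 chains of C1q, which starts the classical complement pathway and is made by macrophages and immature dendritic cells, were higher together. C1qb stood at 10.21 and 11.40, and with LPS at 7.82 and 9.85. C1qc stood at 9.45 and 10.67, with LPS at 7.12 and 8.94, and C1qa at 8.04 and 9.15, with LPS at 6.58 and 7.60. For all 3 chains the unstimulated silenced array was the highest of the 4. C1s1, a protease of the same pathway, was lower, at 7.52 and 6.22, as was Clu, and 22 complement genes had a median of 0.15. Over the 16 measured macrophage markers, which include the 3 chains, the mean level was 9.73 with control siRNA and 10.03 with NR4A3 siRNA. Their median difference was 0.17, and 4 of the 16 were below 0, among them Cd14 (-0.39) and Siglec1 (-0.45). Csf1r stood at 12.80 and 12.97 and Adgre1 at 11.08 and 11.25. Cd163 and Timd4 were below the filter. The part of macrophage numbers in the C1q difference was not tested.

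Circadian output had the highest median of the 34 programme lists, 0.23 over 18 genes. Dbp, a clock-controlled transcription factor, stood at 7.45 and 8.69, Nr1d1, the clock repressor REV-ERB alpha, at 8.36 and 9.28, and Nfil3, which competes with Dbp for its sites, at 9.77 and 8.86. Per1 stood at 8.72 and 8.74. Of 34 nuclear receptors and cofactors, Pparg, the fatty acid sensor of alternatively activated myeloid cells, stood at 9.21 and 10.15, and its target Fabp4 at 6.79 and 7.68. Another target, Cd36, stood at 12.83 and 13.08.

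The other higher genes had no common list. Dnmt3aos, an RNA annotated antisense to Dnmt3a, stood at 8.69 and 10.39, and Npepl1, an aminopeptidase-like protein, at 8.46 and 10.03. Rnf144b, a ubiquitin ligase (8.56 and 9.89), Ptbp2, a splicing regulator (7.78 and 9.11), Gpx3, a secreted peroxidase (9.13 and 10.29), and Snap25, a SNARE protein (9.11 and 10.26), followed. Fstl1 (8.63 and 9.74), Ccn3 (7.50 and 8.61), Tmem202 (6.36 and 7.44) and Klk1b9 (7.79 and 8.87) completed those named. Probes of Klk1b9 may share signal with other, very similar kallikreins.

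Metabolic genes showed single members apart from lists near 0. Aldh1a2, which makes retinoic acid, stood at 10.85 and 8.88, while its list had a median of -0.02 over 35 genes. Pfkfb3, which speeds glycolysis, stood at 9.40 and 8.12, and the glucose transporter Slc2a1 at 11.93 and 11.43, in a list with a median of -0.04. Idi1, an isomerase of cholesterol synthesis, stood at 10.22 and 8.97 with both of its probe sets lower, whereas Hmgcs1 of the same pathway stood at 9.16 and 9.76 and the median of 20 genes was 0.04. In iron handling, Tfrc, the transferrin receptor, stood at 8.03 and 8.93, Slc40a1, the iron exporter, at 7.39 and 8.18, and the ferritin chain Fth1 at 14.16 and 14.14.

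Of the lists not yet described, Notch, Wnt and TGF-beta signalling (median 0.03 over 45) held Tgfbr1, a TGF-beta receptor chain, at 10.76 and 9.42. Lipid and eicosanoid genes (0.13 over 40), calcium and ion channel genes (0.07 over 38), semaphorins (-0.01 over 33), survival and death genes (-0.09 over 31) and replication-dependent histones (-0.13 over 13) held 0 genes at least 2-fold higher. The calcium and ion channel, semaphorin and survival lists each held 1 gene at least 2-fold lower, against 1.72% of all genes tested. These were P2ry10, Sema7a and Gadd45b. The medians of the lists whose members are given above were -0.07 for cycle inhibitors, -0.03 for TNF superfamily ligands, 0.06 for lectins, 0.07 for nuclear receptors and 0.08 for iron handling. Among markers of other cells the culture could hold, monocyte genes had means of 8.97 and 8.83 over 7, granulocyte genes 6.77 and 6.92 over 14, stromal genes 6.71 and 6.79 over 8, and megakaryocyte genes 9.19 and 9.45 over 4. The 7 B cell markers were all below the filter on both arrays. Eosinophil markers (6.10 and 6.10 over 6), mast cell and basophil markers (5.55 and 5.51 over 12) and erythroid markers (7.09 and 6.76 over 4) had 1 or 2 members above it. Of these, Kit stood at 6.97 and 5.88, and Car2, carbonic anhydrase, at 10.27 and 8.94.

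The pair of arrays with LPS shares no array with the unstimulated pair, so both may be set side by side. With LPS 171 genes stood 2-fold or more below their control level, 1.67% of 10210, and 48 stood 2-fold or more above it, 0.47%. Of the 176 genes lower without LPS, 157 passed the filter with LPS. With LPS 173 of the 176 were below 0, against 48.8% of all genes, 121 were lower by at least 1.5-fold, against 4.73% of all genes tested there, and 75 by at least 2-fold. Their median level was 8.97 and 7.47 without LPS and 9.51 and 8.39 with it. In LPS-treated silenced cells Fscn1, Il12b, Jak2 and Ccl5 stood above their level in unstimulated control cells, while Stat4, Ccr7 and Clu stood below it. The 176 were selected partly by that control level, so these are single examples.

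Single genes differed in how much of the difference was seen with LPS. Stat4 (-4.44 without and -2.82 with LPS), Rerg (-3.07 and -2.39) and Adcy6 (-2.50 and -2.22) were lower in both pairs. Ccr7 (-3.53 and -0.74) and Fscn1 (-3.29 and -0.66) had a larger difference without LPS, as did Jak2 (-2.06 and -0.37), Ccl5 (-2.04 and -0.17) and Aldh1a2 (-1.97 and -0.30). Tnfsf4 (-2.38 and -2.84), Tcaf2 (-2.21 and -2.61) and Arap2 (-1.63 and -2.46) had a larger one with LPS. Whether the siRNA difference itself differs between the pairs was not tested, since 4 arrays in 4 conditions leave 0 residual degrees of freedom. Levels near the top or the bottom of the array's range, such as Ccl5 at 14.09 with LPS, leave less room for a difference.

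Of the 21 genes higher without LPS, 17 passed the filter with LPS. With LPS 20 of the 21 were above 0, against 51.2% of all genes, and 11 were higher by at least 1.5-fold, against 3.73% of all genes tested there. Their median level was 8.40 and 9.45 without LPS and 7.12 and 7.99 with it. C1qb (1.19 and 2.03), C1qc (1.22 and 1.82) and Dnmt3aos (1.71 and 1.97) had the larger difference with LPS, and Dbp (1.23 and 0.09) and Gpx3 (1.16 and 0.32) the larger one without.

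**Figure D5:**
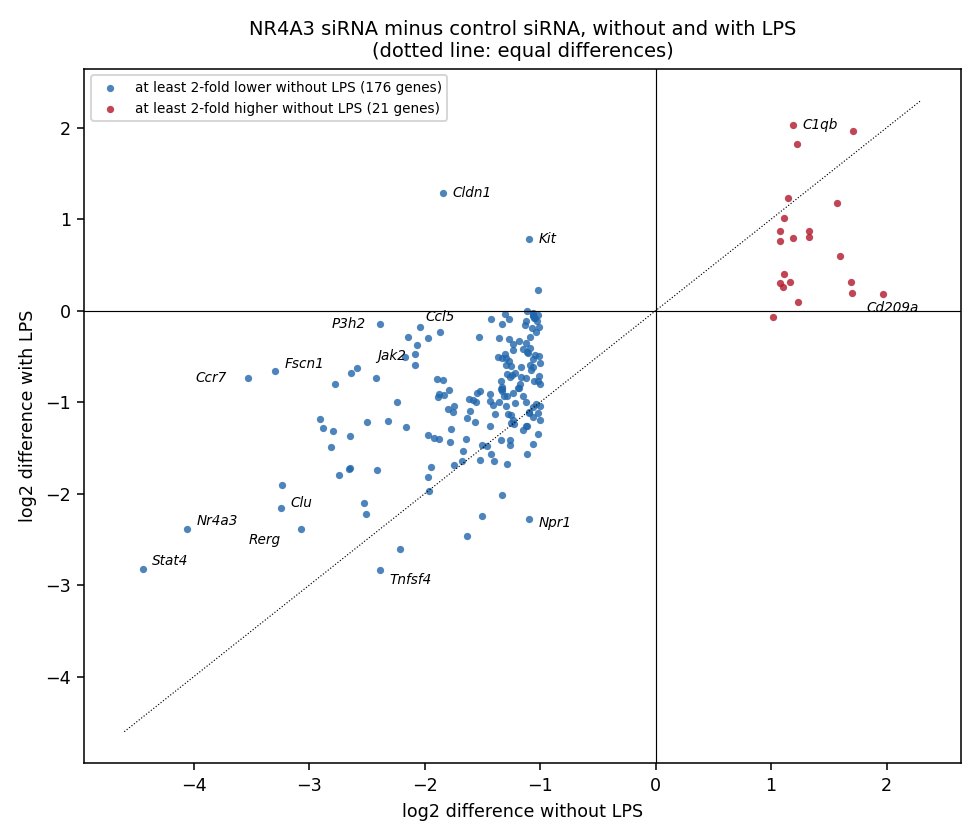
Each point is 1 of the 197 genes past 2-fold without LPS: the x axis is the log2 difference, NR4A3 siRNA minus control siRNA, without LPS and the y axis the same with LPS, and the dotted line marks equal differences. Of the 176 lower genes (blue) 173 lie below 0 on the y axis, and Cldn1 and Kit are the highest of them, at 1.29 and 0.78.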

How the data were processed

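Total RNA was labelled as cDNA and hybridised to Affymetrix Mouse Gene 1.0 ST arrays, 1 array per condition. Per the labels, the deposited values are log2 levels after RMA and quantile normalization. Affymetrix Expression Console 1.1 is named in the submitters' processing notes. Because quantile normalization equalises the distributions of the arrays, it would hide a change shared by most genes. A genome build, or a filter before deposit, is recorded in no label or header at hand, and so is stated as not given.

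Of 28856 probe sets, 21789 had 1 gene symbol in the platform annotation, 1621 several and 5446 none. RefSeq gene identifiers matched for 21698, and 0 symbols were out of date. The result was 19938 genes, 999 of them with more than 1 probe set. Differences and folds were computed in Python 3.11.15 (pandas 2.3.3, numpy 2.4.6), with cyclic loess from limma 3.58.1 in R 4.3.3. There was no test. Precision is limited by the number of arrays. The counting was tested on simulated data with known changes. Promoter windows and coordinates are from RefSeq, GRCm38.p6, and a gene with several starts held a motif if any start did.

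The genes compared, the 34 programme and 12 marker lists and the rule for named genes were chosen with earlier results of these data known. The rule named the 30 lowest and up to 25 highest genes past 2-fold, without gene models, small RNAs, olfactory receptors and the like (which left 19 of the higher), the Nr4a genes, 6 members per list with the largest differences, 3 bright members under 1.2-fold, every list member past 2-fold, and genes that ran in opposite directions without and with LPS. Alternatives were 3 other scalings, folds of 1.5 and 3, other filters, and averaged probe sets.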

Additional observations from a re-analysis of the deposited data

Results flagged for a closer look

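Of all genes past the filter in both pairs, 3 differed by at least 1.5-fold in opposite directions without and with LPS. The difference between the pairs was not tested. Cldn1, a tight junction gene, had a difference of -1.84 without LPS and 1.29 with it: it stood at 9.57 with control siRNA and 7.73 with NR4A3 siRNA, and with LPS at 7.55 and 8.84. Kit, the stem cell factor receptor, had -1.09 without LPS and 0.78 with it, and its silenced unstimulated level of 5.88 was below the filter. Ifi205, a member of a family of near-identical interferon-inducible genes, had 0.89 without LPS and -0.78 with it, from 6.62 to 7.51 and from 12.14 to 11.36.

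Probe sets without a single gene symbol were left out of the comparison of genes and held differences of the same size. Of 2321 that passed the filter, 12 stood lower by 2-fold or more, 0.517%, and 2 stood higher by as much, 0.0862%. The lowest stood at 11.54 and 7.55 and the next at 9.89 and 6.55, and the highest at 10.13 and 11.83.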

How the results depend on the processing

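The counts of genes moved with the fold and with the filter. At 1.5-fold 481 genes were lower and 166 higher, so that 74.3% were lower against 89.3% at 2-fold, and at 3-fold 63 were lower and 5 higher. With the filter at the 75th percentile of the named genes (8.67), 102 were lower. Under median centring, a repeated quantile normalization, cyclic loess, no filter, a filter on both arrays and averaged probe sets, the counts stayed within 1.5 times. The 3 scalings moved the median over all genes by -0.0004, -0.01 and -0.03. Of 275 list medians under alternatives 271 moved by at most 0.15, and the 4 that moved more belong to marker lists reduced to 1 or 2 members above the filter. Of 1424 values of named genes 1420 moved by at most 0.15 and 0 reversed. The exceptions were under the mean of probe sets: Birc2 at -0.56, Rgs3 at -0.56, Top2a at -0.56 and Cdkn1b at -0.23. Leaving out a replicate was not possible with 1 array per condition. No paired analysis was possible because each group holds 1 array. Signal near background limits the folds of genes whose dimmer array lay under the filter.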
